A study of Mus musculus with 20 samples.

Results

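The circadian clock was followed through 10 of its genes: Arntl, Clock, Npas2, Cry1, Per1, Per2, Per3, Dbp, Tef and Nr1d1. The arrays read 28786 gene symbols with 41174 probes, and 20 of those probes carried the name of a clock member, either in the array's own annotation or through the accession of the probe. Every member was on the array, and each was represented by its brightest probe over the 20 arrays. Arntl, Npas2, Per1, Per3 and Dbp had 1 probe each, Per2 and Cry1 had 2, Nr1d1 had 3, and Clock and Tef had 4. The samples were liver and white adipose tissue (WAT) of male C57BL/6 mice, aged 7 months, fed for 21 weeks on a high-fat diet (HFD) with 35% fat. Wild type mice, WT(HFD), were compared with CD44KO(HFD) mice, which lack the hyaluronan receptor CD44 in all cells and had been backcrossed onto C57BL/6J. There were 5 arrays of each genotype in each tissue, each with the RNA of 1 sample, and no control-diet arrays are among the 20. The fat depot and the time of day of tissue collection are not given in the sources used here, and CD44 was absent throughout life, so the comparison is of mice that differed in CD44 from the start.

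The clock of a mammalian cell is a transcriptional loop. CLOCK or its relative NPAS2 pairs with BMAL1, the product of Arntl, and the pair activates genes that carry an E-box, among them the Per and Cry genes, Nr1d1, Dbp and Tef. The PER and CRY proteins then block the pair. NR1D1 (REV-ERB alpha) represses genes with a ROR element, such as Arntl, Clock, Npas2 and Cry1, while DBP and TEF activate genes with a D-box. The result in liver and fat is that Arntl and its companions peak roughly opposite in the day to Dbp, Tef, Nr1d1 and the Per genes. The ratio of the groups thus changes with the phase of a sample, but does not by itself give that phase. Arntl, Clock, Npas2 and Cry1 are called the activator arm below, and Per1, Per2, Per3, Dbp, Tef and Nr1d1 the output arm.

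The promoters of the members show where such motifs lie. RefSeq promoter windows of 250 bases before and 50 after a start site (assembly GRCm38.p6) were at hand for 9 of the 10 members, in 14 windows. Each was searched on both strands for the E-box CACGTG, for the D-box TTATGTAA or TTACGTAA, and for TAGGTCA, the core of a ROR element; these motifs do not overlap one another. Of 32851 windows of all genes, 7.15% held the E-box, 1.06% a D-box and 2.61% TAGGTCA. An E-box was found in 1 of the pair of Per1 windows, in Cry1 and in both windows of Tef, 2 D-boxes were found in Per3, and TAGGTCA was found in 1 window of Arntl. The windows of Clock, Npas2, Dbp and Nr1d1 held none of these letters. The 250 bases before the start site of Per1, Cry1, Tef and Per3 are shown 5′ to 3′ with the E-box or D-box in capitals, because Tef and Per3 were the members that moved most closely with Dbp across the liver arrays and Per1 and Cry1 are the repressor genes whose window holds an E-box.
Per1 (chr11:69098699-69098948, plus strand): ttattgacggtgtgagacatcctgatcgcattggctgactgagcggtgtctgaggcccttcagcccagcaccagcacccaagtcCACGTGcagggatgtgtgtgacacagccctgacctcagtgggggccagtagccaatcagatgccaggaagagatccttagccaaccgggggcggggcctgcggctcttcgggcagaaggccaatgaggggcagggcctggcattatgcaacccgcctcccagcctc
Cry1 (chr10:85185055-85185304, minus strand): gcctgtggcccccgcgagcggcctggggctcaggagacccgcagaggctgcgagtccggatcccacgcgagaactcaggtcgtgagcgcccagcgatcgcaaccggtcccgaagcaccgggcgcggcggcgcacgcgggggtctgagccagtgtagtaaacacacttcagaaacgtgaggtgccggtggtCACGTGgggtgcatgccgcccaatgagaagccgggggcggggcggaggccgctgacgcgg
Tef (chr15:81802423-81802672, plus strand): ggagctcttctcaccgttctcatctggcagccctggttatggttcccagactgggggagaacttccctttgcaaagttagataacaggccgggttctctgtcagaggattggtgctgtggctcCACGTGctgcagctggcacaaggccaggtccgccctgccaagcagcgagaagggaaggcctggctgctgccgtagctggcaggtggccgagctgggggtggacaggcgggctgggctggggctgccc
Per3 (chr4:151044666-151044915, minus strand): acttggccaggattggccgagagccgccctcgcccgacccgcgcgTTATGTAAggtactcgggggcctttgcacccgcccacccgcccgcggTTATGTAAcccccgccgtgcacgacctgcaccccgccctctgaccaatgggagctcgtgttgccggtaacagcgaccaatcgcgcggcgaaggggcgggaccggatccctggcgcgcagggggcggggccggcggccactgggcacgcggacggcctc
The E-box began 166 bases before the start site in Per1, 60 bases before it in Cry1 and 127 bases before it in the window of Tef that is shown, and the D-boxes of Per3 began 205 and 158 bases before the start site. For Arntl, the element with TAGGTCA in capitals began 30 bases after the start site and is shown with its neighbouring bases.
Arntl (chr7:113207530-113207559, plus strand): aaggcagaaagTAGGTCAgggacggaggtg

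Levels are given as log2 of the array's processed signal minus the 75th percentile of that array, so that a level of 0 is the 75th percentile of all probes and a step of 1 is a 2-fold change. The arrays read between 57.4% and 69.5% of their spots well above background, except WT(HFD) WAT replicate 1, which read 89.5%. That array also had the lowest mean correlation with the other WAT arrays of its genotype. Its value was 0.88, against 0.943 to 0.98 for the other WAT arrays, each taken within its own genotype. The WAT differences and correlations of the members, by their brightest probes, are given with and without it. Those of their other probes are given only with it. Cd44, the deleted gene, was at 0.48 ± 0.28 in WT(HFD) liver and at -3.74 ± 0.41 in CD44KO(HFD) liver, and at 4.07 ± 0.37 and -0.51 ± 0.13 in WAT (SD, n = 5 arrays each), a difference of -4.21 in liver and -4.57 in WAT (limma, adjusted p = 6.65e-06 and 7.64e-06). Hepatocyte markers summed to between 2030 and 3050 times the 75th percentile in liver and to at most 55.8 in WAT, and adipocyte markers to between 380 and 923 in WAT and to at most 31.4 in liver. Nothing in the labels says that arrays of a group came from separate cages or days, so the p-values measure only the spread between these samples.

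In liver, no clock member passed the test between genotypes. Of the 10 members, 8 were measured well enough to be tested, and 0 of these 8 passed the test, against 13.6% of all 24689 probes tested (limma with Benjamini-Hochberg adjustment, 3358 probes called). At an unadjusted p under 0.05 the member count was 1, Tef, where 32.2% of all probes had such a p. The median difference of the 8 was 0.19 and that of all probes was 0.08. Npas2 was well above background on 0 of 10 liver arrays and Cry1 on 2 of 10, so neither was tested there.

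In WAT, all 10 members were measured, and again 0 passed the test, where 0.0398% of all 27654 probes did (11 probes called). At an unadjusted p under 0.05 the count was 3: Clock lay higher and Npas2 and Arntl lower in CD44KO(HFD) WAT, and 14.9% of all probes had such a p. Without WT(HFD) WAT replicate 1, 0 of 10 members and 0.136% of 27264 probes were called. The unadjusted count was then 2 of 10, where 14.9% of all probes had such a p. When limma's array weights were used, which give less weight to arrays that deviate from their group, 3 of 10 members and 2850 of 27654 probes were called. The members were Clock (0.32, adjusted p = 0.028), Npas2 (-1.02, adjusted p = 0.0295) and Dbp (0.43, adjusted p = 0.0412).

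**Figure D1:**
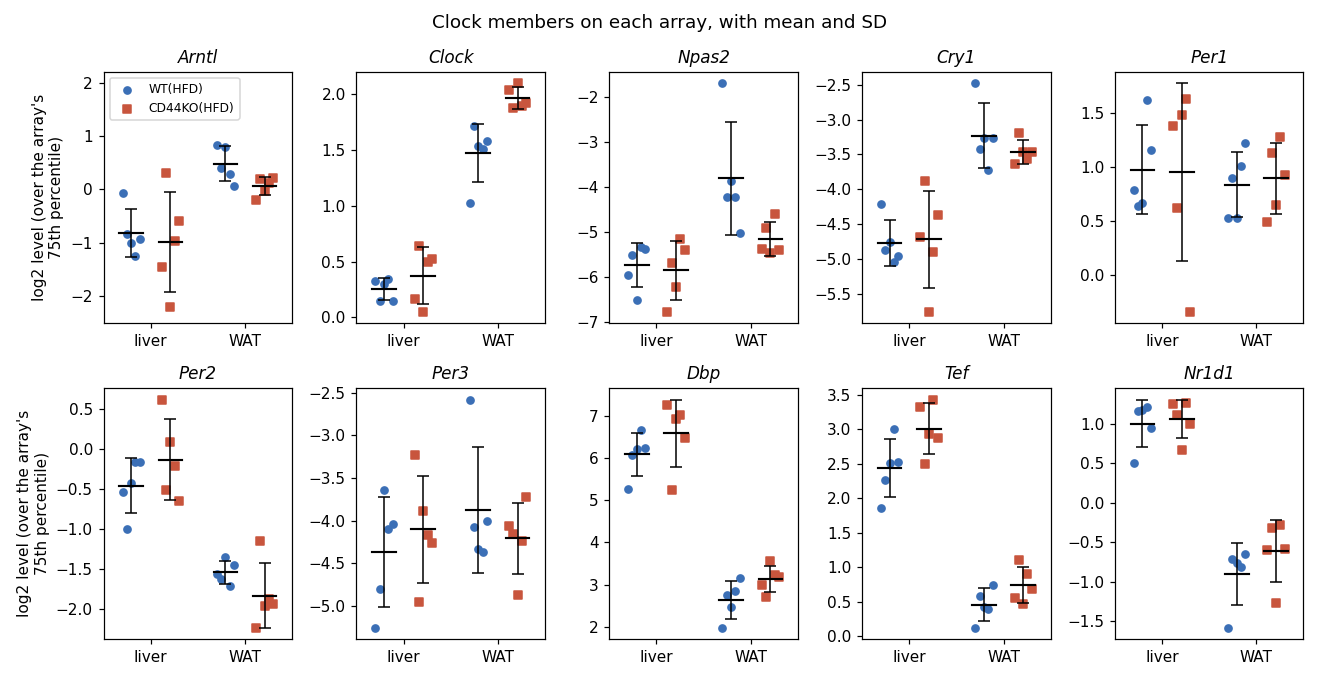
Log2 level over the array's 75th percentile (y axis) of the 10 clock members on each array, by tissue and genotype. Points are arrays, horizontal lines are group means and bars are SD (n = 5). In WAT the 5 CD44KO(HFD) arrays lie above all WT(HFD) arrays for Clock, with 1.88 as their lowest value against 1.72 as the highest WT(HFD) value. WT(HFD) replicate 1 is the highest WAT array for Arntl, Npas2, Cry1 and Per3 and the lowest for Clock, Dbp, Tef and Nr1d1.

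The activator arm is described first. Arntl encodes BMAL1, the obligate partner in the activating pair. In liver, WT(HFD) arrays 1 to 5 read -0.07, -0.83, -1.0, -1.24 and -0.92, and CD44KO(HFD) arrays 1 to 5 read -1.45, 0.31, -2.20, -0.97 and -0.58. The CD44KO(HFD) mice thus held both the highest and the lowest value, and the WT(HFD) values lay between them. The difference was -0.17 (95% interval -1.08 to 0.75, adjusted p = 0.818 by limma), and within the 3 slides it was 0.70, -0.89 and -0.44. In WAT, Arntl read 0.84, 0.41, 0.80, 0.29 and 0.07 on the WT(HFD) arrays and -0.19, 0.19, -0.02, 0.13 and 0.21 on the CD44KO(HFD) arrays. Every CD44KO(HFD) value was below the WT(HFD) mean, while the ranges overlapped through 1 WT(HFD) array. The difference of -0.42 (95% interval -0.83 to -0.01) had an adjusted p of 0.325 by limma and a p of 0.0397 by the two-sided exact permutation test of this gene alone, and it was -0.33 without WT(HFD) replicate 1.

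Clock encodes the partner of BMAL1. In liver its WT(HFD) values were 0.33, 0.15, 0.30, 0.34 and 0.15 and its CD44KO(HFD) values were 0.16, 0.64, 0.05, 0.50 and 0.52. These ranges overlapped, and the difference was 0.12 (95% interval -0.15 to 0.38, adjusted p = 0.536 by limma). In WAT, the WT(HFD) arrays read 1.03, 1.72, 1.54, 1.51 and 1.58 and the CD44KO(HFD) arrays read 2.04, 1.88, 2.10, 1.90 and 1.92. Clock in WAT was the only member with no overlap between genotypes in either tissue, where 6.18% of all WAT probes and 11.7% of all liver probes showed none. The WAT difference was 0.49 (SE 0.15, 95% interval 0.15 to 0.83, 1.41-fold), with an adjusted p of 0.22 by limma and an exact permutation p of 0.00794, the smallest that 252 relabellings can give two-sided. It was 0.63 and 0.49 within the pair of WAT slides that held both genotypes and 0.38 (adjusted p = 0.205) without WT(HFD) replicate 1. Of the other 3 probes of Clock, the next brightest was also higher in CD44KO(HFD) WAT, by 0.45 (limma adjusted p = 0.261). The dimmest pair differed by -1.53 and -1.11 (adjusted p = 0.323 and 0.391), so with WT(HFD) replicate 1 included the probes did not share a direction. That pair had SDs of 1.44 and 1.23 in WT(HFD) WAT, against 0.78 and 0.73 in CD44KO(HFD) WAT. The brightest probe lies at chr5:76144675-76144734 on the minus strand (build mm7) and the next at chr5:76145071-76145130.

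Npas2, the relative of Clock that can replace it, was not well above background on any liver array and is given no difference there. In WAT it read -1.70, -4.23, -3.86, -4.23 and -5.02 on the WT(HFD) arrays and -5.38, -4.91, -5.47, -4.60 and -5.40 on the CD44KO(HFD) arrays. The highest of these values came from WT(HFD) replicate 1, and the ranges overlapped through WT(HFD) replicate 5. The difference of -1.34 (95% interval -2.53 to -0.16, adjusted p = 0.289 by limma, exact permutation p = 0.0238) became -0.82 (adjusted p = 0.21) without replicate 1. Cry1, a repressor of the pair that itself carries ROR elements, was near background in liver, between -5.76 and -3.88. In WAT its values ran from -3.73 to -2.48 in WT(HFD) and from -3.64 to -3.19 in CD44KO(HFD) mice, a difference of -0.23 (adjusted p = 0.613), or -0.05 without WT(HFD) replicate 1.

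**Figure D2:**
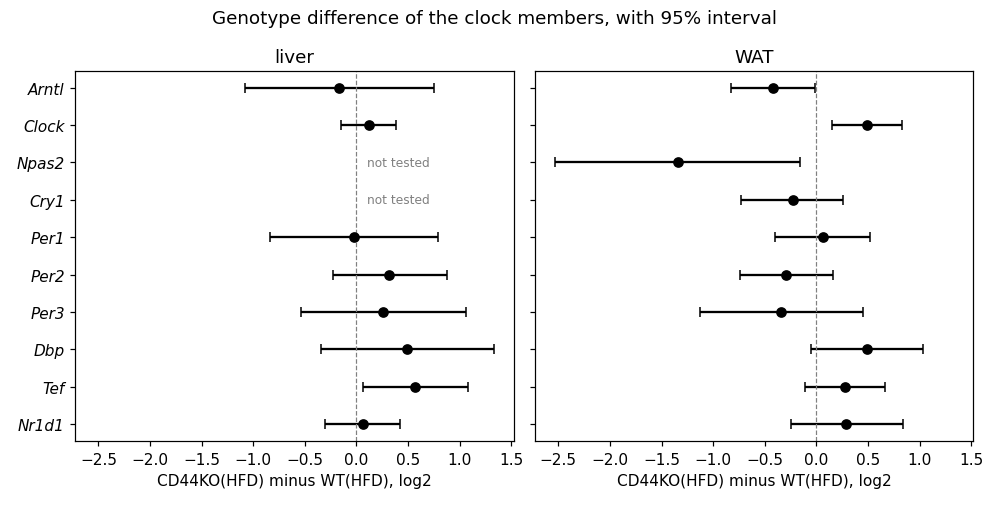
Difference in log2 level, CD44KO(HFD) minus WT(HFD) (x axis), for each clock member in liver and WAT; points are the limma estimates and bars their 95% intervals from 10 arrays a tissue, without adjustment for the number of probes. Intervals leave out 0 for Tef in liver and for Arntl, Clock and Npas2 in WAT, and Npas2 and Cry1 were not tested in liver.

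The output arm holds the Per repressors. Per1, an immediate target of the pair and also of glucocorticoids, read 0.79, 0.64, 0.67, 1.62 and 1.16 in WT(HFD) liver and 1.38, 0.62, 1.48, 1.63 and -0.34 in CD44KO(HFD) liver. The lowest value was that of CD44KO(HFD) replicate 5, below the next lowest at 0.62. The genotypes differed by -0.02 in liver (95% interval -0.84 to 0.79) and by 0.06 in WAT (95% interval -0.40 to 0.52), where the sign turned to -0.02 without WT(HFD) replicate 1. Per2 differed by 0.32 in liver (95% interval -0.23 to 0.88, adjusted p = 0.397) and by -0.29 in WAT (95% interval -0.74 to 0.16, adjusted p = 0.5), or -0.30 without WT(HFD) replicate 1. Its values in liver ran from -1.0 to -0.16 in WT(HFD) and from -0.65 to 0.62 in CD44KO(HFD) mice. Per3 differed by 0.26 in liver and by -0.34 in WAT (adjusted p = 0.654 and 0.638), and was well above background on 7 of 10 liver arrays. Its WAT difference was -0.02 without WT(HFD) replicate 1.

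Dbp and Tef encode related PAR-domain activators that act on D-boxes. Dbp in liver read 5.26, 6.07, 6.21, 6.66 and 6.23 on the WT(HFD) arrays and 7.25, 5.25, 6.91, 7.02 and 6.48 on the CD44KO(HFD) arrays. CD44KO(HFD) replicate 2 and WT(HFD) replicate 1 were the lowest, as they were the highest for Arntl. The difference was 0.49 (95% interval -0.34 to 1.33, adjusted p = 0.397), and it was -0.23, 0.95 and 1.04 within the slides. In WAT, Dbp read 1.98, 2.75, 2.47, 2.85 and 3.17 against 2.99, 2.72, 3.56, 3.24 and 3.18. Again the groups overlapped, with a difference of 0.49 (95% interval -0.05 to 1.03, adjusted p = 0.369) and of 0.33 without WT(HFD) replicate 1.

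Tef was the member nearest to a difference in liver. Its WT(HFD) arrays read 1.86, 2.26, 2.51, 3.01 and 2.53 and its CD44KO(HFD) arrays read 3.32, 2.50, 2.93, 3.43 and 2.87. All 5 CD44KO(HFD) values were above the WT(HFD) mean, and the ranges overlapped. The difference was 0.57 (SE 0.23, 95% interval 0.06 to 1.08, 1.49-fold), with an adjusted p of 0.116 by limma and an exact permutation p of 0.0794. It was 0.33, 0.70 and 0.81 within the slides. With single arrays left out it ran from 0.43 to 0.72, and it passed in 1 of 10 cases. That was without WT(HFD) liver replicate 4 (limma adjusted p = 0.0498), and the highest adjusted p was 0.231, without CD44KO(HFD) liver replicate 4. With another background correction, normexp, the adjusted p was 0.334. The other 3 Tef probes differed by 0.46, 0.58 and 0.47, with adjusted p from 0.055 to 0.168, so all 4 probes lay on the same side. In WAT, Tef differed by 0.28 on its brightest probe (95% interval -0.11 to 0.67, adjusted p = 0.457), or 0.20 without WT(HFD) replicate 1, and by -0.22 on the next. Nr1d1, the repressor of the ROR-element genes, differed by 0.06 in liver (95% interval -0.30 to 0.42) and by 0.29 in WAT (95% interval -0.25 to 0.84, adjusted p = 0.57). Without WT(HFD) replicate 1, the lowest WAT array for this gene, the WAT difference was 0.12 (adjusted p = 0.813). The 3 probes of Nr1d1 differed by 0.06, 0.22 and 0.62 in liver, and by 0.29, -0.47 and -0.18 in WAT, and none of these passed the test.

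The genotype effects were also compared between tissues. Of the 10 members, 0 differed in effect between liver and WAT (limma interaction term, 0 also at an unadjusted p under 0.05), where 1.15% of 28989 probes did and 15.8% had an unadjusted p under 0.05. For Npas2 and Cry1, which were not tested in liver alone, the liver side of this comparison is signal at or near background. The interaction was -0.37 for Clock (95% interval -0.77 to 0.03), 1.23 for Npas2 (95% interval -0.15 to 2.62) and 0.61 for Per2 (95% interval -0.08 to 1.31), with adjusted p of 0.35, 0.374 and 0.375. Without WT(HFD) WAT replicate 1 these values were -0.26, 0.71 and 0.62, and again 0 members passed. Between the tissues themselves, the levels of 6 members did not overlap. The share of all probes without such overlap was not computed, so this count has no background to be set against. Per2, Dbp, Tef and Nr1d1 were higher on every liver array than on any WAT array, for Dbp 5.25 to 7.25 against 1.98 to 3.56. Clock and Cry1 were higher on every WAT array, and Cry1 was near background in liver. The tissues were scanned in separate runs on separate slides, so tissue and run cannot be told apart in these levels, and each is relative to the 75th percentile of its own array.

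The remaining spread between mice was wide in liver for several members. The pooled SD within genotypes was 0.73 for Arntl, 0.67 for Dbp, 0.65 for Per1 and 0.64 for Per3, where the median of all liver probes was 0.20, and these values ranked at the 95.4th, 94.2nd, 94th and 93.6th percentile of the 24663 tested probes with a value on every liver array. Arntl spanned a 5.71-fold range over the 10 livers and Dbp a 3.99-fold range. The lowest liver values of Per3 were not well above background, so no fold range is given for it and its SD includes signals near background. Clock, with an SD of 0.19, and Nr1d1, with 0.27, ranked at the 48.2nd and 66.4th percentile. In WAT, where the median probe had an SD of 0.40, Arntl had 0.26, Dbp 0.39 and Clock 0.20. Without WT(HFD) replicate 1, the WAT members ranked between the 0.667th percentile, Clock, and the 68.5th percentile, Npas2. For Arntl and Per3 in liver the SD fell to 0.49 and 0.46 with the normexp background, which adds an offset to dim signals.

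Whether the mice shared a clock phase was examined next. A difference in phase between mice would make members of an arm move together and the arms move against each other, so each array's deviation from its genotype mean was correlated between members over the 10 arrays of a tissue, with a two-sided exact permutation test over 14400 arrangements within genotypes and Benjamini-Hochberg adjustment over the 45 pairs. In liver, Dbp and Tef passed (r = 0.89, p = 0.000208, adjusted p = 0.00938 by exact permutation; Spearman rho = 0.90, p = 0.000764). It was 0.86 (exact p = 0.00521) without the 2 arrays farthest from the median of Dbp, and 0.92 with slide means removed. WT(HFD) replicate 1 and CD44KO(HFD) replicate 2 were the lowest for both genes within their genotypes, and CD44KO(HFD) replicates 1 and 4 and WT(HFD) replicate 4 the highest. Leaving out single arrays kept r between 0.85 and 0.92, but the adjusted p was above 0.05 without CD44KO(HFD) replicate 1 or replicate 2, with quantile normalization (0.0531) and with the normexp background (0.122).

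The arms opposed each other in liver most clearly for Arntl and Dbp. Their deviations had r = -0.86 (exact p = 0.00611, adjusted p = 0.0688) and rho = -0.81 (exact p = 0.0218), and r was -0.98 (exact p = 0.00278) without the 2 arrays farthest from the median of Arntl. An r this negative against Arntl was reached by 0.235% of the 24662 other liver probes. CD44KO(HFD) replicate 3, lowest for Arntl but not highest for Dbp, lay off the line. Without it, r was -0.99 and passed (adjusted p = 0.0234 by exact permutation). Over all single arrays left out, r ran from -0.99 to -0.7, and the pair passed only without this array. Arntl and Clock had r = 0.82 (exact p = 0.0176, adjusted p = 0.146; rho = 0.78, exact p = 0.0485; 0.50 without the 2 farthest arrays), and Arntl and Per3 had r = -0.74 (exact p = 0.0195, adjusted p = 0.146; rho = -0.79, exact p = 0.00396; -0.85 without the 2 farthest arrays). Arntl and Cry1 had r = 0.94 (exact p = 0.00229, adjusted p = 0.0516; rho = 0.73, exact p = 0.0343; 0.83 without the 2 farthest arrays). With the normexp background that value was -0.19, and Cry1 was well above background on 2 liver arrays, so this pair rests on signals near background. Per3 was not well above background on WT(HFD) replicates 1 and 2 and CD44KO(HFD) replicate 2, so the low end of its values lies near background too. Nr1d1, which shares the output arm, had r = -0.03 with Arntl (exact p = 0.937; rho = -0.30, exact p = 0.417), and -0.88 (exact p = 0.0208) without the 2 farthest arrays.

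Over all 45 liver pairs, 21 of 21 pairs within an arm had r above 0 (median 0.60) and 20 of 24 pairs across arms had r below 0 (median -0.53). Of these, 17 pairs hold Npas2 or Cry1, whose liver signals were at or near background. Among the 28 pairs of the 8 measured members, 16 of 16 within an arm had r above 0 (median 0.60) and 11 of 12 across arms had r below 0 (median -0.56). The 4 exceptions were Npas2 with Tef and Nr1d1, Clock with Nr1d1 and Cry1 with Nr1d1. Unadjusted, 11 of the 45 pairs had an exact p under 0.05, and 8 of the 28 measured pairs did. For comparison, 4.41% of all liver probes had such a p against Arntl and 5.81% against Dbp. Leaving out single arrays left 20 to 21 pairs within arms and 17 to 22 across arms on these sides, and removing slide means left 19 of 21 and 19 of 24. With the normexp background the counts were 16 and 15. Over the measured pairs, single arrays left out gave 15 to 16 of 16 and 10 to 12 of 12, slide means removed 14 and 11, and the normexp background 15 and 10. These pairs share 10 arrays and are not independent of each other, so the counts carry no test.

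In WAT, a different pair led. Tef and Nr1d1 had the highest r, 0.85 (exact p = 0.0016, adjusted p = 0.0719), with rho = 0.95 (exact p = 0.000556, adjusted p = 0.025) and r = 0.90 (exact p = 0.00174) without the 2 farthest arrays. Without WT(HFD) replicate 1, r was 0.77 (exact p = 0.0295, adjusted p = 0.5) and rho was 0.88 (exact p = 0.00521, adjusted p = 0.188). By Pearson's r, 0 of 45 WAT pairs passed and 7 had an unadjusted exact p under 0.05. Of these, Arntl and Dbp had r = -0.73 (exact p = 0.0335, adjusted p = 0.227; rho = -0.76, exact p = 0.0365; -0.42 without the 2 farthest arrays). An r at least this negative against Arntl was reached by 2.27% of all WAT probes. Without WT(HFD) replicate 1 the r was -0.59 (exact p = 0.106; rho = -0.42, exact p = 0.282), and 6.1% of all WAT probes reached it. Clock had a negative r with its own arm in WAT, -0.62 against Arntl (exact p = 0.116; rho = -0.62, exact p = 0.0781; -0.50 without the 2 farthest arrays) and -0.88 against Npas2 (exact p = 0.0289, adjusted p = 0.227; rho = -0.81, exact p = 0.00778; -0.59 without the 2 farthest arrays). These values moved with WT(HFD) replicate 1: without it, Clock had r = -0.37 against Arntl (exact p = 0.354; rho = -0.35, exact p = 0.402) and -0.40 against Npas2 (exact p = 0.299; rho = -0.62, exact p = 0.115). Within arms 12 of 21 pairs had r above 0 and across arms 14 of 24 had r below 0. Without WT(HFD) replicate 1 these counts were 13 and 10, 0 pairs passed and 4 had an unadjusted exact p under 0.05. The background in WAT was higher, since 23% of all WAT probes had an exact p under 0.05 against Dbp and 8.27% against Arntl, or 18.2% and 5.56% without WT(HFD) replicate 1. No test of the difference in correlation between liver and WAT was run.

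**Figure D3:**
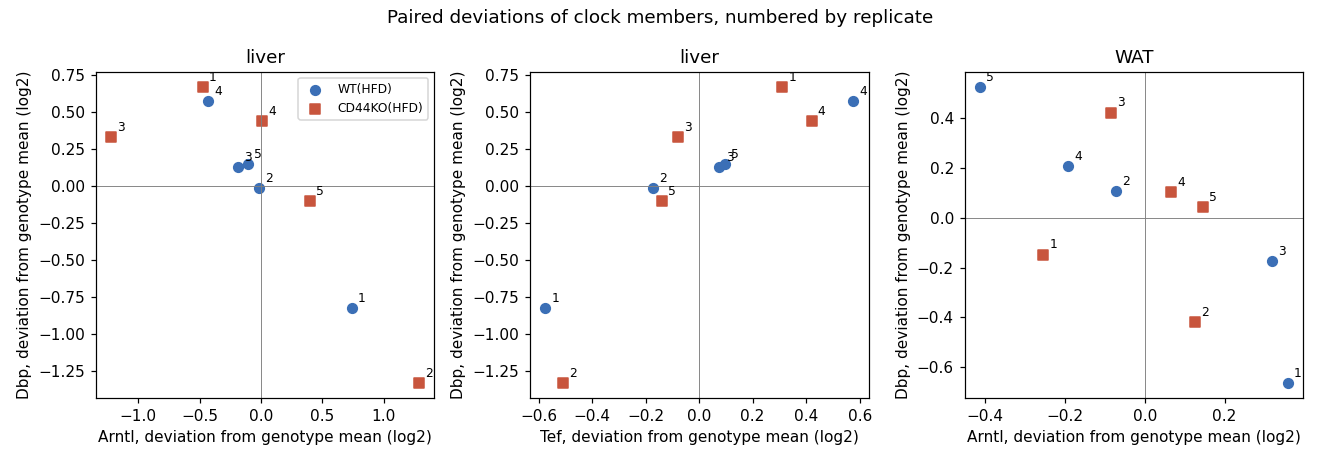
Deviation of each array from its genotype mean in log2 units for Arntl against Dbp in liver, Tef against Dbp in liver and Arntl against Dbp in WAT; points are arrays and numbers are replicates. In liver, CD44KO(HFD) replicate 2 and WT(HFD) replicate 1 lie at the high end of Arntl and the low end of Dbp and Tef (r = -0.86 and 0.89), and in WAT the axes span less (r = -0.73, or -0.59 without WT(HFD) replicate 1).

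An index of the arms was taken for each array, the mean deviation of the activator arm minus that of the output arm from the mean of the 10 arrays of a tissue. In liver it was 0.95, 0.38, -0.21, -0.33 and -0.02 on WT(HFD) arrays 1 to 5 and -1.09, 1.04, -1.03, -0.26 and 0.56 on CD44KO(HFD) arrays 1 to 5. Both genotypes thus held mice on either side of 0, and the group means, 0.15 ± 0.52 and -0.16 ± 0.95 (SD, n = 5), lay closer than their spread. Replicates 1 and 3 of the CD44KO(HFD) group lay at the low end and replicate 2 at the high end. Without Npas2 and Cry1, the indices of the 3 CD44KO(HFD) livers were -1.03, -1.06 and 1.18, and that of WT(HFD) replicate 1 was 1.07. In WAT the index was 1.05, 0.08, 0.41, 0.00 and -0.39 in WT(HFD) and -0.21, -0.29, -0.04, -0.27 and -0.34 in CD44KO(HFD) mice. The group means were 0.23 ± 0.54 and -0.23 ± 0.12 (SD, n = 5). Without Npas2 and Cry1 the WAT values were 0.10, 0.07, 0.32, -0.01 and -0.37 in WT(HFD) and 0.05, -0.20, 0.26, -0.17 and -0.05 in CD44KO(HFD) mice. The means were then 0.02 and -0.02, and the groups overlapped with and without both genes.

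**Figure D4:**
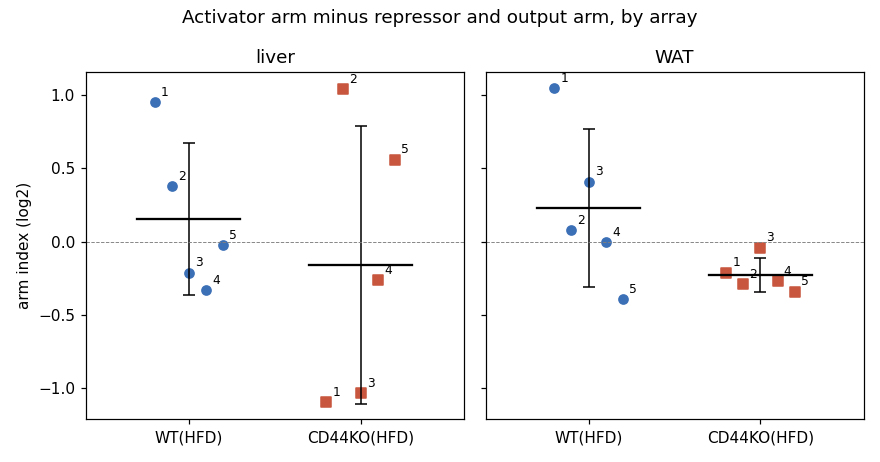
Arm index of each array (y axis, log2): mean deviation of the activator arm minus mean deviation of the output arm. Points are arrays, numbers are replicates, lines are means and bars are SD (n = 5). In liver the CD44KO(HFD) arrays run from -1.09 to 1.04 and the WT(HFD) arrays from -0.33 to 0.95, and in WAT the CD44KO(HFD) arrays lie between -0.34 and -0.04, or between -0.20 and 0.26 without Npas2 and Cry1.

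The genes outside the members whose deviations were most like those of Arntl over the 10 livers were Nsmf (r = 0.98), Sumo3 (0.95), Leo1 (0.94), Slc30a10 (0.93) and Lrfn3 (0.92). For Dbp they were Usp2 (0.95), a deubiquitinase gene with strong daily rhythm, Fcf1 (0.95), Retreg1 (0.93), Acaa1a (0.93) and MGC41410 (0.93). In WAT, the genes most like Arntl were Cd109 (0.94), Ssc5d (0.94), Ube2z (0.93), Slc6a7 (0.92) and Rasl10a (0.92), and those most like Dbp were Ppt1, Clpx, H2-Aa, Nufip1 (0.97 each) and Suz12 (0.96). Without WT(HFD) WAT replicate 1, 1 of these 10 WAT names, Clpx, was again among the 5 most like the same member. These are the top values among all probes tested in the tissue and are given as a description.

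Other genes of the clock were read from a list of 18. In liver 15 were tested, 2 were higher and 1 was lower in CD44KO(HFD) mice, with a median difference of 0.09 against 0.08 for all probes, where 7.85% of all probes were called higher and 5.75% lower. Hlf, the third PAR-domain activator beside Dbp and Tef, rose from 1.69 ± 0.14 to 2.17 ± 0.15, a difference of 0.48 (SE 0.10, limma adjusted p = 0.0177). Btrc, which encodes a ubiquitin ligase subunit that recognises PER proteins, rose by 0.50 (adjusted p = 0.0181), and Csnk1e, a kinase that phosphorylates them, fell by 0.47 (adjusted p = 0.026). Of 12 rhythmic output genes, 1 was higher, the nuclear receptor gene Nr1i3 (0.59, adjusted p = 0.0477), with a list median of 0.30. Among 8 tested glucocorticoid-responsive genes, Sgk1 and Dusp1 were higher (0.83 each, adjusted p = 0.0452 and 0.0472), and the list median was 0.26. The others were not called and did not share a direction. Tat (0.78), Tsc22d3 (0.37) and Klf9 (0.15) lay higher, and Mt2 (-1.83, limma adjusted p = 0.097), Mt1 (-0.57) and Fkbp5 (-0.27) lower. Atf3, 1 of 6 immediate early genes, was lower (-1.49, adjusted p = 0.0188; list median -0.55), and 0 of 6 temperature-responsive genes passed. Under 13 alternatives, 3 scalings and each liver array left out, all 7 called genes kept their direction. Hlf, Btrc and Atf3 passed in 12 of them and Csnk1e in 8, while Nr1i3, Sgk1 and Dusp1 passed in 3 each. With the normexp background Hlf (0.35, adjusted p = 0.17), Btrc (0.41, adjusted p = 0.117), Nr1i3, Sgk1 and Dusp1 did not pass. In WAT, 0 of the 16, 10, 8, 6 and 6 genes tested from these lists passed.

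Markers of other cells moved with genotype beside these values. In CD44KO(HFD) liver, 3 of 5 T cell markers were lower (Cd8a, Lck and Cd3g), where 5.75% of all liver probes were called lower. Cd2 (-0.31) and Cd3e (0.12) were not called. The summed T cell level ran from 1.31 to 2.41 in WT(HFD) and from 1.08 to 1.65 in CD44KO(HFD) mice. Of 5 macrophage markers 1 was lower, Itgax, which fell by 2.01 on the log2 scale. Cd68 (-0.55), Cd14 (-0.84), Adgre1 (0.50) and Csf1r (0.07) were not called. The macrophage sums were 7.11 to 17.4 and 7.95 to 22.1. Of 5 hepatocyte markers 1, Cyp2e1, was higher, where 7.85% of all liver probes were called higher. The hepatocyte sums were 2030 to 2670 and 2540 to 3050. With the normexp background the 5 called liver markers kept their direction and none passed (limma adjusted p from 0.088 for Itgax to 0.88 for Cd3g). In WAT, adipocyte markers summed to 380 to 618 in WT(HFD) and 514 to 923 in CD44KO(HFD) mice, and mesothelium markers to 2.13 to 10.3 and 0.985 to 3.16. T cell markers summed there to 0.627 to 5.19 and 0.361 to 0.845, and macrophage markers to 118 to 183 and 69.4 to 157. Of these lists 0 markers were called in WAT. WT(HFD) WAT replicate 1 had an epididymis marker sum of 1.30 against 0.0123 to 0.172 on the other WAT arrays. That array also read 89.5% of its spots well above background, against at most 69.5% on any other array. Whether its sum marks epididymis tissue was not tested. The part of these markers in the values of the clock members was not tested, and in whole tissue fewer cells of a type and less RNA per cell cannot be told apart.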

How the data were processed

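RNA of liver and WAT was labelled with Cy3 and hybridised to Agilent mouse arrays of 45018 spots in 1 colour. The deposited values are scanner intensity per spot, made by the authors with Feature Extraction 9.5.3.1 per the file headers. In the processed signal a spatial background and a trend are already removed and dim spots are replaced by surrogates; probe positions are on build mm7. The deposited series table, labelled with no unit, held the same values as the array files. Here control and outlier spots were left out, spots of a probe averaged, and log2 intensity was taken minus each array's 75th percentile. For a probe to be tested, 3 or more of the 5 arrays of 1 genotype had to read it well above background. Genotypes were compared within a tissue with limma 3.58.1 (R 4.3.3); p-values were adjusted by Benjamini-Hochberg over the whole array and called at 0.05, and single genes by exact permutation. The methods name no test for the arrays. The number of arrays limits the precision.

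The members and the gene lists were chosen with earlier results of these data known. The text names the 10 members, Cd44 and the 5 named genes most like Arntl and Dbp (unnamed clones left out). From the clock, output, glucocorticoid, temperature and immediate early lists it names at most 8 genes per tissue past the threshold. The cell type markers, and the glucocorticoid-responsive genes that were not called, lie outside this rule and were named after their values were seen. Replicate numbers did not pair the arrays: same-numbered arrays had r from -0.0381 to 0.417 in liver and from -0.212 to 0.0916 in WAT. Each array slide held arrays of 1 tissue, with 3 slides a tissue, and scan time coincided with the slide, so no separate scan block was fitted. The fits were tested on simulated data. Normalization, background, filter, blocks, weights, probe choice and each array were varied.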

Additional observations from a re-analysis of the deposited data

Results flagged for a closer look

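Outlying arrays were looked for in the 40 groups of 5 arrays, of which 2 held an outlier. The groups share arrays and are not independent of each other, so this count carries no test. The gap to the nearest array, set against the range of the group, was 0.80 for Per3 and 0.83 for Nr1d1. Both came from WT(HFD) WAT replicate 1, the array with the most spots well above background. Per3 was at -2.58 there, against -4.01 on the next highest array of its group. Nr1d1 was at -1.59, against -0.81 on the next lowest.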

How the results depend on the processing

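Of 673 alternative values of single members, 627 kept their direction and their side of the threshold, 5 newly passed it and 41 changed sign; the 5 were Tef in liver without WT(HFD) replicate 4 and the 4 WAT values named next. With array weights in WAT, 3 of 10 members and 2850 of 27654 probes passed (Clock 0.32, Npas2 -1.02, Dbp 0.43). With all 20 arrays in 1 fit, 1 of 10 members passed in WAT (Clock 0.49, limma adjusted p = 0.0405). That fit called 1647 WAT and 638 liver differences among 28989 probes. Liver calls were 641 with normexp (216 higher, 425 lower, against 1938 and 1420) and 1027 unfiltered; WAT calls were 35 with normexp, 3 unfiltered and 4 with the slide as a fixed block (11 as a random block, as without one). With the replicate block 1329 liver and 3 WAT probes passed, and 0 members passed in either tissue or in the interaction; of the 12 listed liver genes and markers called, Sgk1, Dusp1, Atf3, Cd8a, Lck and Cd3g passed, and Hlf (adjusted p = 0.0551), Btrc (0.0585), Csnk1e (0.0798), Nr1i3 (0.0879), Itgax (0.0566) and Cyp2e1 (0.0652) did not. Pair correlations were not run with the block. Leaving out single arrays gave 0 to 1 members and 924 (without WT(HFD) replicate 2) to 4695 (without CD44KO(HFD) replicate 3) probes in liver, 0 members and 3 to 37 (without WT(HFD) replicate 1) probes in WAT, 0 to 2 and 2 to 4 members with an exact p under 0.05 in liver and WAT, and 0 to 6 and 0 to 1 pairs. The 6 liver pairs were called without CD44KO(HFD) replicate 3, 3 without WT(HFD) replicate 3, 2 without CD44KO(HFD) replicate 4 and 0 without CD44KO(HFD) replicate 1 or 2; the WAT pair was called without CD44KO(HFD) replicate 2 (Tef and Nr1d1) or 4 (Npas2 and Dbp). Signs that turned when an array was left out had ranges of -0.49 to 0.14 (Arntl) and -0.19 to 0.30 (Per1) in liver, -0.06 to 0.16 for Nr1d1 in liver, -0.04 to 0.16 for Per1 in WAT, and, for liver against WAT, -0.07 to 0.56 (Arntl), -0.25 to 0.24 (Per1) and -0.20 to 0.33 (Dbp).

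Values that changed sign, none past the threshold, were, in WAT, with quantile normalization, Per1 (-0.02), Per2 (0.16), Per3 (0.46) and Cry1 (0.55), with array weights Per3 (0.30), and with the second brightest probe Cry1 (0.61), Tef (-0.22) and Nr1d1 (-0.47); in liver, Arntl with normexp (0.0019). For liver against WAT these were Dbp (-0.06 normexp, -0.07 median, -0.14 and -0.01 slide as a fixed or random block), Per3 (-0.18) and Cry1 (-0.47) with quantiles, and Cry1 (-0.33) and Nr1d1 (0.69) with the second probe. Liver pairs called were 0 with normexp, quantiles or without the 2 farthest arrays; WAT pairs were 1 by Spearman and 1 with quantiles (Per2 and Cry1). Quantile normalization moved the median of all WAT probes from -0.06 to 0.12, and normexp that of the interaction from 0.13 to 0.30. The cause was not tested. With 5 arrays a genotype, the liver interval for Arntl spans -1.08 to 0.75, so a 2-fold fall lies within it; the dim members Npas2 and Cry1 were not measured in liver.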

Other observations

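The labels do not say whether arrays of the same genotype and number in liver and WAT came from the same mouse. Matched by number (an alternative chosen after seeing the data), 1 of 10 members passed over the 10 pairs: Clock, with r = -0.53 between its liver and WAT deviations (exact permutation p = 0.00146, adjusted p = 0.0146; rho = -0.78, exact p = 0.00646). Its r was -0.57 (exact p = 0.178) without the 2 arrays farthest from the median in liver, and -0.87 (adjusted p = 0.0208, exact permutation) without WT(HFD) replicate 1. The matched correlation was not run over all probes, so the count of members that passed has no background to be set against. Nr1d1 had r = 0.88 (exact p = 0.0201, adjusted p = 0.0757; rho = 0.48, exact p = 0.184), and -0.02 without the 2 farthest arrays. Arntl had r = 0.50 (exact p = 0.0709; rho = 0.62, exact p = 0.0419) and 0.65 without the 2 farthest arrays.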
